A study of Mus musculus with 12 samples.

Results

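The 10 genes studied here belong to the angiotensin, natriuretic peptide and endothelin systems and were followed in TM3 cells, a mouse line derived from testicular Leydig cells, after exposure to methoxyacetic acid (MAA), a short-chain acid that the body forms from a glycol ether solvent and that is known to harm the testis. They were Agt, Ace, Agtr1a, Agtr2, Nppb, Npr2, Npr3, Edn1, Ednra and Ednrb, and 17 of the 41174 probes on the array were assigned to them, with at least 1 probe for each of these 10 of the 15972 genes named on it. The set was chosen by the strong fall of Agtr2 and the response of Nppb at 8 h, which were already known, so the log2 ratios of Agtr2 in every condition and of Nppb at 8 h are given as a description without a test. Cultures were kept in plain medium or were given MAA at 1 mM or at 5 mM and harvested after 3 h, after 8 h or after 24 h. This gave 6 conditions, each hybridized on 2 arrays. Each array set an RNA pool from MAA-treated cultures against a pool from untreated cultures of the same time, and the dyes were swapped between replicate 1 and replicate 2. Every group was this 1 line and no animal tissue was sampled. Whether the 1 mM and 5 mM arrays of one time shared an untreated pool is not given in the sources used here, so values at the 2 concentrations may not be independent of each other. Because the RNA was pooled, the spread between the 2 arrays does not hold the spread of single cultures.

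Angiotensinogen, encoded by Agt, is cut by renin and then by angiotensin converting enzyme (Ace) to angiotensin II, a peptide that acts through the type 1 receptor (Agtr1a) and, often with opposing effects, through the type 2 receptor (Agtr2). B-type natriuretic peptide (Nppb) belongs to a family of peptides that lower blood pressure, whose receptors include the guanylyl cyclase Npr2, which prefers the C-type peptide, and Npr3, which removes natriuretic peptides from the extracellular space. Endothelin 1 (Edn1) is a vasoconstrictor peptide read by the type A (Ednra) and type B (Ednrb) receptors. All 3 systems act locally in the testis as well as in the circulation, and Leydig cells are known targets of natriuretic peptides.

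The sequences before the transcription starts of the genes on which the results turn are shown here, since Agtr2 and Nppb led to the choice of the set and Edn1 changed sign over the course of the exposure. Each is the RefSeq stretch of 250 bases that ends just before the start, on the forward strand of GRCm38.p6, with matches on either strand to 3 short motifs in capitals (the letters TATANAA, then the letters GATAA, then the letters CACCC). RefSeq windows were found for 9 of the 10 genes.
Agtr2, chrX:21484374-21484623: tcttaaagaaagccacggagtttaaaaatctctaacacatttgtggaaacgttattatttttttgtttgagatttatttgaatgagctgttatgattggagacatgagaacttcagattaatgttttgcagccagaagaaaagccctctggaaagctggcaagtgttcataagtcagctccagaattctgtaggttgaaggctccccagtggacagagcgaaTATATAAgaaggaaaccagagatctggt
Nppb, chr4:147985650-147985899: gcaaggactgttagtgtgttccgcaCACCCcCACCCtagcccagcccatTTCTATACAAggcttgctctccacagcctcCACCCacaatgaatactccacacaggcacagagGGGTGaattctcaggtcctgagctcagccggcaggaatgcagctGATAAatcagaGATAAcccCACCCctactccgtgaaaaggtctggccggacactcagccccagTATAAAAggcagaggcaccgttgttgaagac
Edn1, chr13:42301226-42301475: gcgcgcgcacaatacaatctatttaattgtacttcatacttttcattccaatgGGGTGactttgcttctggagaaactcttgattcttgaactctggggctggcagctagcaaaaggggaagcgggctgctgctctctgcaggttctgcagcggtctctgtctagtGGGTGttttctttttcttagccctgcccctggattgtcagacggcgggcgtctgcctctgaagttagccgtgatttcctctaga
The Agtr2 window held 1 match to TATANAA, which began 28 bases before the start, and none to the other motifs in capitals. The Nppb window held 3 matches to TATANAA, of which 2 overlapped each other, together with 2 to GATAA and 5 to CACCC. The Edn1 window held 2 matches to CACCC. Of 32851 mouse windows of the same length, 10.4% held TATANAA, 22.6% held GATAA and 52.0% held CACCC, so the last is a common run of letters. GGGCGG, found in 32.7% of windows, and TGANTCA, found in 6.75%, were searched on both strands too and were in none of these 3 windows. The Agtr2 gene spans 21484624 to 21488833 of chromosome X, Nppb spans 147985786 to 147987205 of chromosome 4 and Edn1 spans 42301476 to 42307990 of chromosome 13. The annotated Nppb gene thus begins inside the printed window, which belongs to a transcript that starts further in.

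From 61.6% to 70.4% of the probes had a spot well above background in a given channel. The ratios of the 2 arrays of a condition correlated across all probes at between 0.496 and 0.644 for 5 mM and between -0.134 and 0.309 for 1 mM. The lowest of these belonged to 1 mM at 3 h. Of 8 Leydig cell markers, Star, Cyp17a1 and Insl3 were well above background in the untreated channel of all 12 arrays, whereas Cyp11a1, Hsd3b1, Hsd3b6 and Lhcgr were so on none. Of 4 peritubular myoid markers, 2, Acta2 and Cnn1, were so on all 12 arrays by at least 1 probe. This also held for the Sertoli cell markers Sox9 and Rhox5 and the germ cell markers Ddx4 and Prm1. However, 1 Sox9 probe was well above background in 3 of the 12 untreated channels, and the other Prm1 probes in 1 and 0. Of the 5 Sertoli cell markers, Amh, Fshr and Cldn11 were so in only 2, 2 and 0 untreated channels. Of the 4 germ cell markers, Sycp3 was so in 5 and the Dazl probes in 1 and 0. The summed level of a list, which adds probes of unequal response, ran in untreated cells from 15302 to 24108 for the myoid list, from 250 to 515 for the Sertoli list and from 554 to 1740 for the germ cell list. At 5 mM these sums ran from 19387 to 33483, from 335 to 925 and from 417 to 1985. The Leydig sum ran from 475 to 896 in untreated cells and from 461 to 546 at 5 mM. Single genes carried much of some sums, with untreated medians of 419 for Insl3, 17033 for the brightest Acta2 probe and 700 for Ddx4. The untreated ranges span all 12 arrays and the 5 mM ranges only the arrays of 5 mM, so the ranges are not compared. At 5 mM the Sox9 probes that were well above background throughout were called at 3 h, at 1.37 and 1.06. The third, dimmer Sox9 probe was called the other way there, at -1.41. Cnn1 was called at 5 mM and 8 h, at 1.19. At 24 h the markers called at 5 mM were Rhox5 at 1.28, Cyp11a1 at 1.75 and 2.61 and Insl3 at -1.11. So were Des at 1.30 and 1 probe each of Acta2, Cdh5 and Emr1, at 1.25, 1.26 and 2.85. The part of these markers in the results was not tested. The endothelial markers Pecam1 and Cdh5 and the macrophage markers Emr1 and Ptprc were not well above background in any untreated channel, whereas the endothelial markers Tek and Kdr were so in 8 and 1 of the 12. These were whole cultures of 1 line, so no change of a marker is read as a change in the number of cells of a kind. Whether the RNA changed in all cells or in some of them cannot be told from pooled RNA.

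A call required an unadjusted p (limma) under 0.005 together with a change larger than 2-fold at 5 mM, or larger than 1.5-fold at 1 mM. Of the 10 genes, 4, Agtr2, Nppb, Edn1 and Npr3, were called in at least 1 condition on 5 of their probes, where 12.8% of all probes were, and 6 genes were called in none. At 5 mM, 0 of the 17 probes were called at 3 h, 3 at 8 h and 3 at 24 h, where 3.76%, 5.55% and 5.62% of all probes were called. At 1 mM, 2, 4 and 1 of the 17 were called, where 1.95%, 2.37% and 4.68% of all probes were. Nothing is read from these counts, because the probes of Agtr2 and Nppb, which the choice of genes used, make up all of those called at 5 mM and all but 2 of those called at 1 mM. The median log2 ratio of the 17 probes lay between -0.23 and 0.08 over the conditions, beside medians of between -0.10 and 0.03 for all probes. Both channels of 8 of the 17 probes failed to rise well above background at 5 mM and 3 h, and this number was 3 at 24 h.

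**Figure D1:**
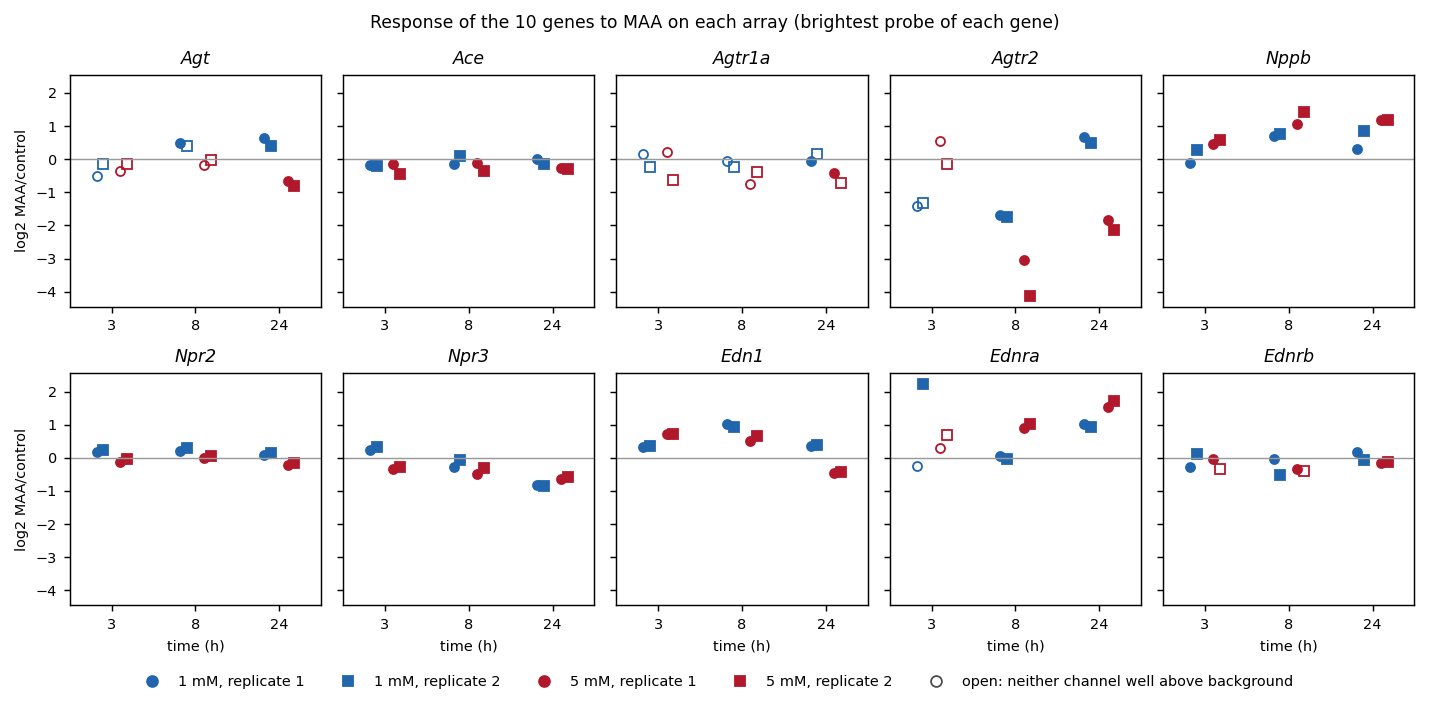
Log2 ratio of MAA-treated to untreated cells (y axis) against time in h (x axis) for the brightest probe of each of the 10 genes, 1 point per array. Blue is 1 mM, red is 5 mM, circles are replicate 1, squares replicate 2, and open symbols mark arrays on which neither channel was well above background; Agtr2 reached -4.14 at 5 mM and 8 h, Nppb lay above 0 on all 6 arrays of 5 mM, and Edn1 changed sign between 8 and 24 h at 5 mM.

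Agtr2, the type 2 angiotensin receptor, was far lower in MAA-treated cells at 8 h. The arrays of 5 mM gave log2 ratios of -3.05 and -4.14, and those of 1 mM gave -1.69 and -1.75. The signal of the treated cells at 5 mM did not rise well above background at 8 h, so the change is given as a bound: Agtr2 was at least 5.95-fold lower, and the fitted log2 ratio of -3.59 (SE 0.25) is not a measured fold. At 24 h the receptor was measured in both channels at 5 mM, with log2 ratios of -1.85 and -2.15 and a fitted value of -2.0 (SE 0.25). With normexp background correction and an offset of 50 added to each signal, the fitted values at 5 mM were -1.18 at 8 h and -1.35 at 24 h, and that at 1 mM and 8 h was -0.79. An offset added to both channels by itself draws ratios towards 0, most of all for dim probes. At 24 h the arrays of 1 mM stood on the other side of 0, with 0.68 and 0.49. At 3 h neither channel was well above background at 1 mM or 5 mM, so no fold is given for that time. The call counted above for Agtr2 at 1 mM and 3 h is therefore not read as a result.

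The levels behind these ratios show how far untreated cells themselves moved. Levels are given as channel signals scaled to a common distribution across arrays, and they can be set between times of one probe but not between genes. In untreated cells Agtr2 lay between 2.67 and 10.2 at 3 h, not well above background on any of the 4 arrays, between 66.9 and 82.1 at 8 h, and between 276 and 377 at 24 h. The 24 h level was at least 23.2-fold higher than that at 3 h. Cells at 5 mM had levels of 9.59 and 3.80 at 8 h, neither well above background, and of 76.7 and 75.6 at 24 h. The 24 h level at 5 mM thus fell within the range of untreated cells at 8 h. At 1 mM the levels were 25.5 and 21.9 at 8 h, below all 4 untreated values, and 551 and 529 at 24 h, above all 4 of them.

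Agt, the angiotensin precursor, was dim and took opposite signs at the 2 concentrations at 24 h. At 5 mM its log2 ratios were -0.67 and -0.80, whereas the arrays of 1 mM gave 0.63 and 0.40. The difference of 5 mM from 1 mM at 24 h was -1.25 (SE 0.15, adjusted p = 0.00463 by limma over all probes), and on the slide that held an array of each it was -1.29. It passed in 19 of 20 alternative analyses and was lost with the normexp correction, where it was -0.25 (adjusted p = 0.166). Agt passed no call in any condition, as its change at 5 mM and 24 h of -0.74 (SE 0.11, adjusted p = 0.00182) was smaller than 2-fold. The treated channel was well above background on 1 of the 2 arrays there. The ratio at 5 mM was also lower at 24 h than at 8 h by 0.63 (SE 0.15, adjusted p = 0.0471), but this held in 6 of 21 alternative analyses and neither channel was well above background at 8 h. Untreated cells had Agt levels of 15.6 to 24.0 at 24 h and were not well above background at 3 or 8 h.

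Ace, which produces angiotensin II, was measured by its brighter probe in every condition and was called in none. The fitted log2 ratios of this probe lay between -0.29 and -0.03 (SE 0.10). Its second probe was dim and gave a negative ratio on replicate 1 and a positive one on replicate 2 in each of the 6 conditions, which is the order of the dyes. Agtr1a, the type 1 receptor, was at the edge of detection. Its brighter probe was well above background in 2 of 12 untreated channels and 1 of 12 treated ones, the second probe in none, and neither was called. The fitted value of the brighter probe at 5 mM was -0.56 at 8 h and -0.58 at 24 h (SE 0.20, adjusted p = 0.0766 and 0.0690).

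Nppb, the B-type natriuretic peptide, rose with MAA and was measured by 2 probes that agreed in sign in every condition. At 8 h, the time at which its response was known beforehand, the brighter probe had log2 ratios of 1.05 and 1.41 on the 5 mM arrays, and of 0.70 and 0.77 on the 1 mM arrays. The second probe had 1.69 and 1.83 with 5 mM, and 0.99 and 1.19 with 1 mM. All 8 of these values were above 0, and the second probe lay above the first on each array. At 24 h and 5 mM the brighter probe was at 1.18 (SE 0.15, adjusted p = 0.000875) and the second at 1.92 (SE 0.18, adjusted p = 0.000201), so that the rise was called on both. At 3 h and 5 mM the probes were at 0.51 and 0.79 (adjusted p = 0.0463 and 0.0145), higher on both arrays of each probe but under 2-fold. The calls at 5 mM did not hold after the normexp correction, where the 24 h values were 0.60 and 0.92. Its offset of 50 is of the size of many of these signals and by itself draws their ratios towards 0.

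At 1 mM the 2 Nppb probes were less alike. At 24 h they stood at 0.58 and 0.65 (adjusted p = 0.0476 and 0.0567), above 0 on all arrays but short of a call. At 3 h the brighter probe was at 0.08 (adjusted p = 0.995), with -0.13 and 0.29 on its arrays, whereas the second was called at 0.76 (adjusted p = 0.0609) on values of 0.32 and 1.19. That call was lost in 15 of 21 alternative analyses. The scaled untreated level of the brighter probe had medians of 34.2 at 3 h, 35.6 at 8 h and 32.7 at 24 h. At 5 mM its levels were 53.6 and 48.2 at 3 h, 77.7 and 95.7 at 8 h, and 79.2 and 74.8 at 24 h, all above the 4 untreated values of the same time. From 3 to 24 h the untreated median of the brighter probe changed by a factor of 0.96 and that of the second by 0.85, but without the scaling between arrays these were 1.62 and 1.40, so no direction is given for untreated Nppb.

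Npr3, the clearance receptor, was lower in treated cells at 24 h at both concentrations. At 5 mM the arrays gave log2 ratios of -0.63 and -0.59, and the arrays of 1 mM gave -0.82 and -0.85. The change of -0.83 at 1 mM (SE 0.07, adjusted p = 0.000837) was called, except with the normexp correction, where it was -0.41, and that of -0.61 at 5 mM (SE 0.07, adjusted p = 0.000625) was significant over all probes but smaller than 2-fold. Levels at 24 h were 189 to 202 in untreated cells, 123 and 126 at 5 mM, and 113 and 112 at 1 mM, with no overlap. At 5 mM the receptor was already lower at 3 h (-0.32, adjusted p = 0.0150) and 8 h (-0.40, adjusted p = 0.00411). At 3 h the concentrations differed by 0.59 on the log2 scale (5 mM minus 1 mM -0.59, SE 0.10, adjusted p = 0.0276), with 1 mM at 0.24 and 0.31; the difference passed in 9 of 19 alternative analyses, and the 1 mM arrays of 3 h were those that agreed least.

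Npr2, the guanylyl cyclase receptor, was measured by 3 probes and called in no condition. Its brightest probe had close replicates and small changes, from -0.19 at 5 mM and 24 h (SE 0.06, adjusted p = 0.0403) to 0.25 at 1 mM and 8 h (SE 0.06, adjusted p = 0.0479). The second probe ran from -0.23 to 0.33 over the same 2 conditions. The third, dimmer probe was at -0.36 at 5 mM and 24 h (SE 0.10, adjusted p = 0.0299) and at -0.0036 at 1 mM and 8 h. All 3 probes thus had negative values at 5 mM and 24 h (adjusted p = 0.0938 for the second).

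**Figure D2:**
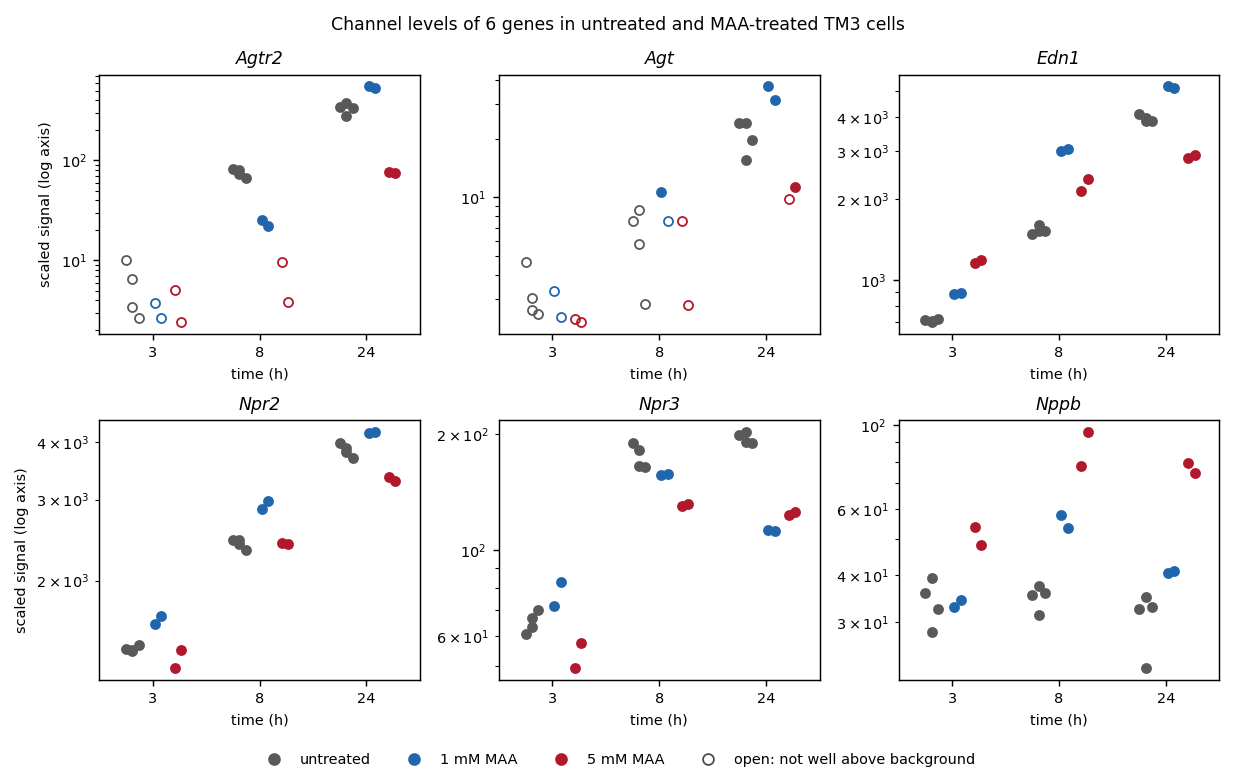
Scaled channel signal on a log axis (y axis) against time in h (x axis) for the brightest probe of 6 genes, 1 point per array channel: grey untreated (4 per time), blue 1 mM and red 5 mM MAA (2 each). Open symbols were not well above background; untreated Edn1 rose from a median of 707 to 3919 while its 5 mM level moved from above the untreated values at 3 and 8 h to below them at 24 h.

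Edn1, endothelin 1, was raised early by both concentrations and at 24 h was raised at 1 mM and lowered at 5 mM. The log2 ratios at 5 mM were 0.73 and 0.72 at 3 h, 0.50 and 0.65 at 8 h, and -0.45 and -0.42 at 24 h. Those at 1 mM were 0.32 and 0.35 at 3 h, 1.02 and 0.94 at 8 h, and 0.34 and 0.38 at 24 h. The 2 arrays of a condition shared their sign in all 6 conditions. The fitted values at 5 mM were 0.72 (adjusted p = 0.000154), 0.57 (adjusted p = 0.000291) and -0.43 (adjusted p = 0.00116), each with an SE of 0.06 and each smaller than the 2-fold needed for a call. At 1 mM they were 0.33 (adjusted p = 0.0237), 0.98 (adjusted p = 0.000974) and 0.36 (adjusted p = 0.00958), of which that at 8 h was called.

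The fall in the Edn1 ratio at 5 mM from 8 to 24 h was -1.01 (SE 0.08, adjusted p = 0.00144), against 8.91% of all probes that passed this contrast, and on the slide with an array of each it was -1.06. It passed in 20 of 21 alternative analyses, the exception being the 6 arrays of 5 mM alone, where adjusted p = 0.0548. From 3 to 8 h at 5 mM the ratio did not pass, and 0 of the 14 probes tested did, where 5.10% of all probes passed. Edn1 was also lower at 5 mM than at 1 mM at 8 h (-0.41, SE 0.08, adjusted p = 0.0236; 10.1% of all probes passed) and at 24 h (-0.80, SE 0.08, adjusted p = 0.00258; 8.41% passed). Within slides these differences were -0.52 and -0.30 at 8 h and -0.80 at 24 h. The second passed in 20 of 20 alternative analyses and the first in 14 of 20; it was lost with centred arrays (adjusted p = 0.114), without replicate 1 of 5 mM at 8 h (0.130), without either 1 mM array of 8 h (0.141 and 0.0826) and without either 1 mM array of 24 h (0.0524). At 3 h the order was the other way, with 5 mM above 1 mM by 0.39 (adjusted p = 0.0532), which missed the threshold; 3.40% of all probes passed there.

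**Figure D3:**
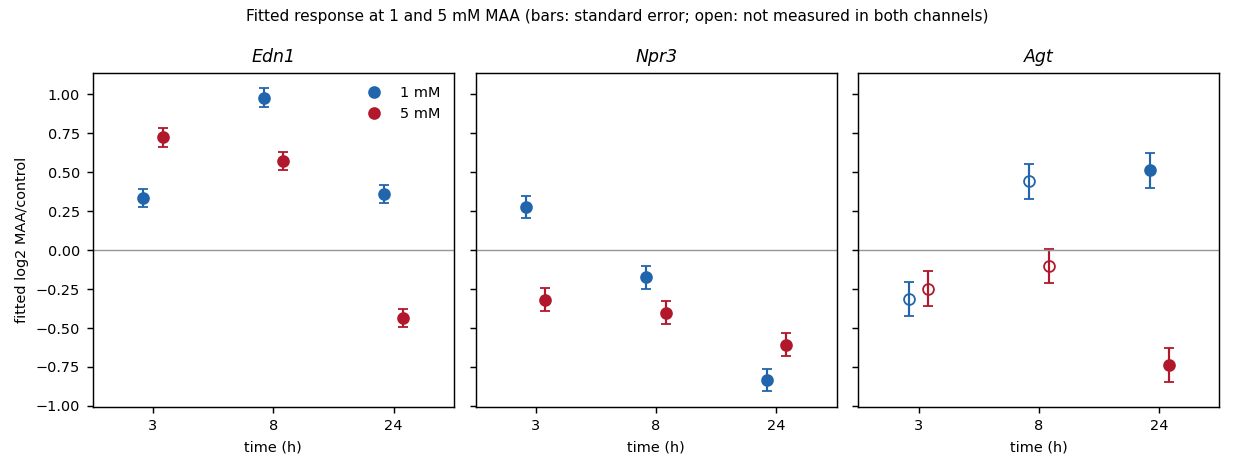
Fitted log2 ratio of MAA-treated to untreated cells (y axis) against time in h (x axis) for Edn1, Npr3 and Agt at 1 mM (blue) and 5 mM (red), with bars of 1 standard error (2 arrays a point). Open symbols mark conditions not measured in both channels; Edn1 and Agt at 24 h lay below 0 at 5 mM and above 0 at 1 mM, and Npr3 lay below 0 at both.

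The endothelin receptors were dim. The brighter Ednra probe, for the type A receptor, had log2 ratios of 1.54 and 1.70 at 5 mM and 24 h, a fitted value of 1.62 (SE 0.46, adjusted p = 0.0332) that missed the unadjusted threshold of a call. This probe differed by over 2 on the log2 scale between the arrays of 1 mM at 3 h, with -0.26 and 2.24, and the error of the fit is shared by all conditions. The 24 h value was called in 5 of 22 alternative analyses, among them those that left out either of these arrays or the whole condition. For the other conditions these ways of leaving out arrays give nearly the same fit, so they are not separate evidence. The second Ednra probe was at 0.16 at 5 mM and 24 h and was well above background in neither channel. Ednrb, the type B receptor, had fitted values between -0.37 and 0.05 (SE 0.14) on its brighter probe and none was called. Its second probe was not well above background in either channel of any array. The fitted values of that probe ran from -0.22 to 0.48, with no call.

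In untreated cells several of these genes were higher at 24 h than at 3 h. The 4 untreated levels of Edn1 were 700 to 720 at 3 h, 1485 to 1599 at 8 h and 3870 to 4113 at 24 h, so that the median was 5.54-fold higher at 24 h than at 3 h. Npr3 ran from 60.8 to 70.2 at 3 h and from 189 to 202 at 24 h, a 3.00-fold rise of the median. The brightest Npr2 probe rose 2.71-fold and the second 2.49-fold, whereas the third was at 0.75 of its 3 h level. In all, 6 of the 17 probes, in Agt, Agtr2, Npr2, Npr3 and Edn1, had untreated ranges at 24 h above those at 3 h with medians more than 2-fold apart, as had 6.57% of all probes, and none had ranges apart in the other direction, as had 4.59%. These are levels of single channels from different arrays and carry no test. Without the scaling between arrays the same genes were higher by 7.34-fold for Edn1, 4.77-fold for Npr3 and 3.44-fold for the brightest Npr2 probe. The direction turned without it for the third Npr2 probe, then at 1.19 of its 3 h level, for both Ace probes, at 1.34 and 1.2 against 0.77 and 0.91 with the scaling, and for both Nppb probes.

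Around these genes, a list of 35 further genes of the same and neighbouring vasoactive systems had probes for 33, with 51 probes. At 5 mM 1, 2 and 4 of the genes were called at 3, 8 and 24 h, and at 1 mM 0, 2 and 7 were; by probes these were 1, 2 and 5 of 51 (1.96%, 3.92% and 9.80%) and 0, 2 and 9 of 51 (0%, 3.92% and 17.6%), where 3.76%, 5.55% and 5.62% of all probes were called at 5 mM and 1.95%, 2.37% and 4.68% at 1 mM. In all, 10 genes were called in at least 1 condition, on 13 of the 51 probes, where 12.8% of all probes were. Of the 19 calls behind these counts 6 held with the normexp correction, namely the 3 of Edn2, that of Atp6ap2 and those of 1 Mme and 1 Calcrl probe at 1 mM and 24 h, and 13 were lost, among them every call of Mas1, Ramp2, Ramp3, Corin, Enpep and Ren1. The median log2 ratio of the 51 probes at 1 mM and 24 h was 0.22, beside -0.07 for all probes.

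Of the endothelin system, Edn2, which encodes a second endothelin peptide, rose at both concentrations. Its log2 ratios were 1.19 and 1.23 at 5 mM and 24 h (fitted 1.21, SE 0.09, adjusted p = 8.83e-05) and 0.93 and 1.07 at 1 mM and 24 h (fitted 1.00, adjusted p = 0.00103). Edn2 was therefore up at 5 mM and 24 h, when Edn1 was down. Mme, neprilysin, which degrades natriuretic peptides and endothelins, was called at 1 mM and 24 h on both probes, at 1.13 each (adjusted p = 0.00932 and 0.00306), and stood at 0.71 and 0.50 at 5 mM. Corin, the protease that activates natriuretic peptide precursors, was called at 1 mM and 24 h with ratios of 1.82 and 1.67 (fitted 1.74, SE 0.21, adjusted p = 0.00317). At 5 mM and 24 h Corin was at -0.55 (adjusted p = 0.0948). It was also called at 1 mM and 8 h, where its treated channel was well above background on 1 array and its untreated channel on none.

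In the angiotensin system, Mas1, the receptor for angiotensin 1-7, rose at 5 mM and 24 h on both of its probes, but neither call held with the normexp correction, where they were at 0.49 and 0.42. The second probe had ratios of 3.57 and 3.03 with an untreated channel not well above background, which made the rise at least 2.35-fold (adjusted p = 4.23e-05). The first was at 1.76 (SE 0.41, adjusted p = 0.0142), with a wide gap between its arrays at 1.07 and 2.46. Enpep, aminopeptidase A, which trims angiotensin II, was called at 1 mM and 24 h at 1.32 (SE 0.27, adjusted p = 0.0210) and lay at -0.73 at 5 mM (adjusted p = 0.0813). Ren1, renin, was called lower at 5 mM and 24 h on 1 of 2 probes, with 1 of 4 channels well above background, and was at least 1.27-fold lower. Atp6ap2, the prorenin receptor, rose by 0.61 at 1 mM and 24 h (SE 0.10, adjusted p = 0.0107).

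Among receptors of related vasoactive peptides, Calcrl, which binds adrenomedullin and calcitonin gene-related peptide together with a Ramp partner, fell at 1 mM and 24 h on both probes, by 1.28 and 1.45 on the log2 scale (adjusted p = 0.0251 and 0.0373). At 5 mM and 24 h the same probes were at 0.67 and 0.58 (adjusted p = 0.113 and 0.282). The second Calcrl probe was called at 5 mM and 3 h on values as far apart as 0.77 and 2.36. Its partner Ramp2 rose at 5 mM, at 1.31 at 8 h (adjusted p = 0.000545) and 1.48 at 24 h (adjusted p = 0.000348), and at 1 mM and 24 h at 0.83 (adjusted p = 0.0155). Ramp3 was called at 5 mM and 8 h at 1.39 (SE 0.31, adjusted p = 0.0120).

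**Figure D4:**
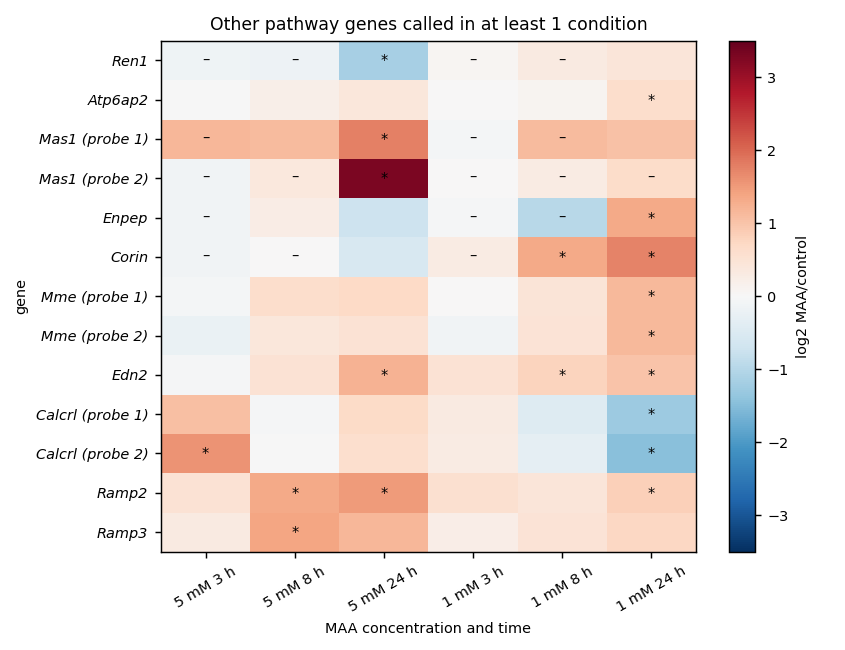
Log2 ratio of MAA-treated to untreated cells (colour, red higher and blue lower) for the 13 probes of the 10 listed genes called in at least 1 condition (rows), in the 6 conditions (columns). An asterisk marks a call and a dash a condition in which neither channel was well above background; most asterisks stand in the 2 columns of 24 h, with Calcrl and Ren1 the only genes in blue among them.

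The genes whose ratios over the 12 arrays followed those of Agtr2 and Nppb most closely were listed, as a description of shape only. Among 15031 named probes that stood clear of background in 1 or both channels of each array, Id4, Rap2c, Heg1, Rdh11 and Rnf138 came nearest to Agtr2, with Pearson correlations from 0.939 down to 0.920 over the 12 arrays. Their own changes were far smaller, from -0.84 for Rdh11 to -0.11 for Id4 at 5 mM and 8 h. Csrnp1, Radil, Ckb, Atp1b2 and Pcbp3 came nearest to the brighter Nppb probe, from 0.937 down to 0.929. Of these, Radil reached 1.98 and Ckb 1.68 at 5 mM and 8 h. The 12 arrays come in pairs of one condition and share 3 slides and a pair of dyes, and the best of so many probes will correlate highly. The Agtr2 ratios of 3 h, with neither channel well above background, entered its correlations in full. So did those of 5 mM and 8 h, where the treated channel was not well above background.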

How the data were processed

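RNA of TM3 cells was measured on 12 two-colour 60-mer arrays on 3 slides, 2 per condition with swapped dyes. The authors pooled independently treated cultures, labelled them with a pair of Alexa dyes and extracted intensities with Agilent Feature Extraction 9.5.3.1, whose processed signals are background-subtracted and dye-normalized. The deposited intensity values were used here; the deposited log10 ratios, which equal the scanner's ratios turned to MAA over control, served as an alternative. Control spots and outlier flags were left out and spots of a probe averaged. Genes were named by matching the accession of a probe to RefSeq transcripts (GRCm38.p6), which named 22072 of 41174 probes. Ratios as log2 were fitted with limma 3.58.1 in R 4.3.3, with 1 coefficient per condition over all arrays, and p-values adjusted by Benjamini-Hochberg over all probes. Contrasts of time at 5 mM and of concentration passed at adjusted p under 0.05. For levels, each channel was scaled by quantiles of its average signal (Aquantile). A bound on a fold sets the mean of the bright group against, per array, the higher of the dim signal and the lowest signal among probes well above background on every spot; without balanced dyes it is open to dye bias. The number of arrays limits precision. The fit was tested on simulated data. All probes of the 10 genes, every listed gene called in any condition and the 5 most similar genes were named. Members and lists were chosen with earlier results of these data known. Alternatives covered background correction, source of the ratio, centring, dim and outlier spots, blocks, adjustment, arrays in the fit and each array left out; 1 mM at 3 h left out, the unscaled untreated levels and the comparison of untreated times were added after seeing the data. Promoters came from RefSeq.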

Additional observations from a re-analysis of the deposited data

Results flagged for a closer look

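The responses of Edn1, Agt and Npr3 differed between conditions by the limma contrasts. For Edn1 these were 24 h minus 8 h at 5 mM (-1.01) and 5 mM minus 1 mM at 8 h (-0.41) and at 24 h (-0.80). For Agt they were 24 h minus 8 h at 5 mM (-0.63) and 5 mM minus 1 mM at 24 h (-1.25), and for Npr3 5 mM minus 1 mM at 3 h (-0.59). They were not equally firm. In the order given, the Edn1 contrasts passed in 20 of 21, 14 of 20 and 20 of 20 alternative analyses. Those of Agt passed in 6 of 21 and 19 of 20, and that of Npr3 in 9 of 19. Agtr2 at 24 h was lower than untreated cells on both arrays of 5 mM and higher on both of 1 mM, a difference of -2.58 that was not tested because the choice of genes used it. Among the 4 untreated levels of a time, taken as log2, 1 of 30 groups held a value far from the others. This was Agtr1a at 8 h, where the lowest level was 6.23 and the next 10.7, a gap of 0.848 of the range on the log2 scale. Chance flags about 1 in 20 such groups, and none of these levels was well above background.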

How the results depend on the processing

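Counts below are of member probes and of listed genes called, or of the 14 member probes past a contrast. In the main fit 0 of the 14 passed 8 h minus 3 h and 2 passed 24 h minus 8 h, beside 5.10% and 8.91% of all probes. For 5 mM minus 1 mM at 3, 8 and 24 h these were 1, 1 and 2, beside 3.40%, 10.1% and 8.41%. The share of all probes past a contrast was not counted in the alternatives, so nothing is read from shifts in those numbers. With normexp and loess the member calls were 1, 1, 0, 2 and 0 at 5 mM 8 h, 5 mM 24 h, 1 mM 3 h, 1 mM 8 h and 1 mM 24 h, the listed genes 0, 0 and 1 over the times of 5 mM and 1 and 4 at the later times of 1 mM, and 1 probe each passed 24 h minus 8 h and 5 mM minus 1 mM at 24 h; over all probes it called 534, 1030 and 881 at 5 mM and 116, 398 and 500 at 1 mM, against 1547, 2284 and 2315 and 803, 977 and 1925. The deposited ratios gave 3, 2 and 4 probes past the concentration contrasts at 3, 8 and 24 h, and so did leaving dim probes out. Centring each array gave 1 member call at 1 mM 3 h, 1 probe past 24 h minus 8 h, and 0 past the concentration contrasts at 3 and 8 h. The slide as a block gave 0 listed genes at 5 mM 3 h, 2 member calls at 1 mM 24 h and 1 probe past 24 h minus 8 h. With the Benjamini-Hochberg p in the call there was 1 member call at 1 mM 3 h. Keeping outlier spots left every count within 1.5 times. With the arrays of one concentration alone there were 0 listed genes at 5 mM 3 h, 0 probes past 24 h minus 8 h, and 1 and 2 member calls at 1 mM 3 h and 8 h. With 1 mM 3 h left out of the fit 3 members were called at 1 mM 24 h and 2 probes passed 5 mM minus 1 mM at 8 h. The cause of these shifts was not tested.

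Deviations of same-numbered arrays from their condition means correlated between 0.075 and 0.514 over 15 pairs, and the number is also the dye orientation, so the numbers were not taken to pair the samples. The replicate block gave 0 listed genes at 5 mM 3 h, 3 member calls at 1 mM 24 h, and 3, 2 and 5 probes past the concentration contrasts at 3, 8 and 24 h.

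Leaving out each array in turn, member calls ran from 0 to 0, 3 to 3 and 3 to 4 at 5 mM 3, 8 and 24 h and 0 to 2, 2 to 4 and 1 to 3 at 1 mM; listed genes ran from 0 to 1, 1 to 2 and 3 to 5 at 5 mM and 0 to 2, 2 to 3 and 3 to 8 at 1 mM (3 and 4 at 24 h without replicate 1 and replicate 2 of that condition); probes past a contrast ran from 0 to 0 (8 h minus 3 h), 1 to 3 (24 h minus 8 h), 0 to 1, 0 to 2 and 2 to 2 (5 mM minus 1 mM at 3, 8 and 24 h). No called member changed sign in any of 2197 recomputed ratios, of which 2151 kept their side of the call, 30 lost it and 16 gained one. Many of these ratios could not change sign, since without a block a fitted ratio uses only the arrays of its own condition. Leaving out arrays of another condition, or changing the p in the call, thus left the ratio as it was. An array left alone in its condition adds no residual spread. Leaving out either array of a condition therefore gives the other conditions nearly the same fit. The tallies of alternative analyses given for single genes thus count some fits more than once. The 2151 also include probes that were called neither before nor after. Signal over background limits Agt, Agtr1a, Ednra, Ednrb and, at 3 h and in the treated cells of 5 mM at 8 h, Agtr2.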
